A study of Mus musculus with 22 samples.

Results

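The Hmgn genes encode the high mobility group N proteins, and 4 of them were followed here in fully-grown germinal vesicle (GV) oocytes of the mouse. The members were taken by symbol and are Hmgn1, Hmgn2, Hmgn3 and Hmgn5, 4 of the 52636 genes in the count table. Hmgn3 is the reason the family was picked, since its rise in Dicer dMT/dMT oocytes is among the largest seen there. The Hmgn3 values of that comparison are therefore a description, and Hmgn3 was tested only in the paired-end run, whose libraries the choice did not use. The table holds 2 further rows with an Hmgn symbol, Hmgn2-ps1 and Hmgn2l6, which are used below only for reads they share with Hmgn2.

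RNA of pooled GV oocytes from C57BL/6 females was sequenced in 22 libraries, 11 with single-end and 11 with paired-end reads. Oocytes use a short Dicer isoform, driven by an LTR promoter of the MT family, to make the siRNAs of an unusually active RNAi pathway. The single-end libraries were wild type (Dicer-WT/WT, n = 3), heterozygous for a deletion of that promoter (Dicer dMT/WT, n = 1), homozygous for it (Dicer dMT/dMT, n = 4), or Dicer SOM/SOM (n = 3), an allele that encodes only tagged full-length Dicer. Their ages are not given in the labels. In the paired-end run every animal carried at least 1 Dicer SOM allele and at least 1 Mili DAH allele, which encodes a catalytically dead form of the piRNA-pathway protein MILI, so its controls were not wild type. Heterozygous controls were Mili-DAH/WT, Dicer-SOM/WT (n = 4, of 10, 17, 36 and 38 weeks). RNAi mutants were Mili-DAH/WT, Dicer-SOM/SOM (n = 2, of 13 and 17 weeks), the piRNA mutant was Mili-DAH/DAH, Dicer-SOM/WT (n = 1, of 16 weeks), and double mutants were Mili-DAH/DAH, Dicer-SOM/SOM (n = 4, of 11, 11, 35 and 40 weeks). The Dicer SOM animals descend from 1 embryonic stem cell clone. The Dicer dMT deletion leaves some oocyte Dicer expression from another retrotransposon promoter. The labels do not say which libraries came from separate females, so p-values measure the spread between these libraries.

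HMGN proteins are small nuclear proteins that bind the nucleosome core through a short, positively charged nucleosome-binding domain. They compete with linker histone H1 for chromatin and are found at promoters and enhancers, where they loosen compaction and modulate histone modification. HMGN1 and HMGN2 are expressed in most cells, HMGN3 is known for high levels in endocrine pancreas, eye and brain, and HMGN5 differs from the others by a long acidic tail.

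The shared domain is visible in the coding sequences. The 30-base stretch in which the 4 coding sequences are most alike is shown for each gene, because it encodes the conserved core of the nucleosome-binding domain and shows how far a read could tell the members apart. Capitals mark the 17 bases that are the same in all 4 genes. Sequences are from GENCODE M21 on GRCm38 and are written 5′ to 3′ in the sense of the mRNA.
Hmgn1: GccGcTCcGCgaGgcTGTCgGCcAagCCcG
Hmgn2: GaaGaTCtGCgaGgtTGTCtGCtAaaCCtG
Hmgn3: GacGgTCgGCcaGgtTGTCcGCgAaaCCtG
Hmgn5: GaaGaTCaGCccGacTGTCtGCtAtgCCtG
All 4 genes lie on the minus strand, and each stretch crosses an intron. It runs over chr16:96127197-96127333 for Hmgn1, chr4:133966473-133966788 for Hmgn2, chr9:83112264-83114795 for Hmgn3 and chrX:109010601-109010879 for Hmgn5. Even here Hmgn3 has only 24 of 30 bases in common with Hmgn2, Hmgn5 has 23 and Hmgn1 has 21. Over the whole coding sequence, Hmgn2 and Hmgn3 were 66.6% identical, Hmgn1 and Hmgn3 68.7%, and Hmgn1 and Hmgn2 68.9%.

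Copies elsewhere in the genome were closer than the members are to each other. The Hmgn2 stretch is shown next to those of Hmgn2-ps1 and Hmgn2l6, with capitals now marking the bases that differ from Hmgn2.
Hmgn2-ps1: gaagatctgcgaggttgtctgctGTaAGtA
Hmgn2l6: gaagatctgcAaggttgtctActaaacctg
Hmgn2-ps1 was 97.1% and Hmgn2l6 93.2% identical to the Hmgn2 coding sequence. Of all 50-base windows of Hmgn2 transcripts, 25.4% occurred exactly in transcripts of 18 other genes, and of 75-base windows 20.6% in 11 other genes. For Hmgn5 the shares were 18.6% and 15.8%, all in Gm11914, and for Hmgn1 4.33% and 2.67%. For Hmgn3 they were 9.82% and 8.30%, and the only other gene was Gm29054, which overlaps it on the opposite strand. The authors' counting divided such reads between places, so Hmgn2 and Hmgn5 levels are uncertain by an amount that these shares do not measure.

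Total counts per library were between 6468380 and 90713013, and the lowest depth belonged to Dicer SOM/SOM replicate 3, in which 3 counts correspond to 0.464 CPM (counts scaled to the library total, with TMM factors in all levels given here but not in this limit). Dicer1 was 42.0% to 52.6% of the wild-type mean in Dicer dMT/dMT, 4.11% to 5.38% in Dicer SOM/SOM, and 8.31% to 9.71% of the control mean in the 6 paired-end libraries with 2 Dicer SOM alleles. All 12 oocyte markers had over 3 counts in every group, and they summed to 12671.6 to 13526.8 CPM in RNAi mutants, below the 13955.8 to 15862.6 CPM of their controls, while the ranges of the other mutants with several libraries overlapped those of their controls. The 11 granulosa and cumulus cell markers summed to between 85.2 and 156.8 CPM, overlapping between each such mutant and its controls. The 10 blood and immune markers summed to 75.5 to 99.0 CPM in Dicer SOM/SOM, below the 117 to 131 CPM of wild type, and overlapped in the other comparisons with controls. Single markers were called in both directions. In Dicer SOM/SOM against wild type, 1 of 5 tested blood and immune markers was lower (Ms4a1), and of 11 granulosa and cumulus markers 1 was higher (Fshr) and 1 lower (Cyp19a1). Double mutants had 2 of 6 tested blood and immune markers higher than controls, Ighm and Ptprc, the second with at most 14 counts in a library and 0 in every control, and 1 of 11 granulosa and cumulus markers lower (Nr5a2). Of the oocyte markers, Kit and Mos were lower in every comparison of homozygous Dicer mutants with controls. Nobox was also called higher in Dicer SOM/SOM and Dppa3 lower in double mutants. Of all genes, 15.4% were called in Dicer dMT/dMT, 28.6% in Dicer SOM/SOM, 10.7% in RNAi mutants and 21.2% in double mutants, each against controls. The part of the marker differences in the results was not tested. The paired-end libraries form sets with more and less ribosomal RNA, parted at 1000 CPM of the rRNA-overlapping gene Gm42418. The set with more holds double mutants 1o and 1, both RNAi mutants and controls 1o and 3, where o marks animals of 35 weeks or older. No low-rRNA RNAi mutant exists in the run. In the single-end run Gm42418 had 5233 to 5822 CPM in wild type, 5236 to 7623 CPM in Dicer dMT/dMT and 4795 to 17423 CPM in Dicer SOM/SOM, a log2 fold change of 1.07 between Dicer SOM/SOM and wild type (adjusted p = 0.0390) and 0.98 between the homozygous alleles (adjusted p = 0.0913).

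Hmgn3 was near the bottom of detection in every library with a wild-type Dicer allele and at least 4.62 CPM in every library without one. It lies at chr9:83109948-83146685 (ENSMUSG00000066456.14) and has 5 merged exons and 1546 exonic bases. In wild type it stood at 0.126, 0.319 and 0.139 CPM in replicates 1 to 3, which are 8.5, 18.5 and 8.5 counts and thus above the 3 counts taken as the floor. The Dicer dMT/WT library had 0.165 CPM from 14 counts.

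Dicer dMT/dMT oocytes had 5.45, 8.55, 8.70 and 5.61 CPM in replicates 1 to 4. Every one of these libraries stood at least 17.1-fold above the highest wild-type library, and none came near the heterozygote. The means were 7.08 ± 1.79 (SD, n = 4) against 0.195 ± 0.108 CPM (SD, n = 3), and the fitted log2 fold change was 5.25 ± 0.37 (SE). This is the comparison that chose the gene, and 15.4% of the 23151 genes tested in it were called at an adjusted p under 0.05, 8.06% higher and 7.3% lower.

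In Dicer SOM/SOM, whose oocytes lose the short isoform through a different allele, Hmgn3 stood at 6.73, 6.18 and 10.4 CPM. The groups again did not overlap, and the lowest library was 19.4-fold above the highest wild type. The log2 fold change to wild type was 5.34 ± 0.39 (SE), with no test because the same wild-type libraries served in the choice of the gene. The highest value came from the shallow replicate 3, with 71.5 counts, and without it the log2 fold change was 5.12. Without wild-type replicate 2, the highest of the wild types, it was 5.89, and that of Dicer dMT/dMT was 5.81. Between the homozygous alleles, the log2 difference was 0.09 ± 0.27 (SE), and their libraries overlapped.

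The paired-end run measured the same gene in other animals. Heterozygous controls had 0.143, 0.555, 0.319 and 0.459 CPM in replicates 1o, 2o, 2 and 3, from 5.83 to 16.7 counts. The piRNA mutant, which keeps a wild-type Dicer allele, had 0.283 CPM from 10.2 counts and lay within the control range.

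RNAi mutants had 9.39 and 9.08 CPM, and both lay at least 16.4-fold above the highest control. The mean was 9.24 ± 0.22 (SD, n = 2) against 0.369 ± 0.179 CPM (SD, n = 4), a log2 fold change of 4.64 ± 0.36 (SE, 95% confidence interval 3.88 to 5.43, adjusted p = 1.93e-06). Hmgn3 was 1 of 4 members called in this comparison, in which 10.7% of 20989 genes were called, 7.07% higher and 3.64% lower. Because a library pools oocytes, a higher level in every oocyte and a much higher level in some of them cannot be told apart.

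Double mutants had 5.32, 4.62, 7.01 and 4.86 CPM in replicates 1o, 2o, 1 and 2, all at least 8.32-fold above the highest control. The mean was 5.45 ± 1.08 CPM (SD, n = 4) and the log2 fold change to controls 3.88 ± 0.33 (SE, 95% confidence interval 3.18 to 4.61, adjusted p = 2.16e-06). Again only Hmgn3 was called of the 4 members, beside 21.2% of all genes tested, 12.3% higher and 8.83% lower. Within the libraries with more rRNA the log2 fold change was 4.46 (adjusted p = 0.00017), and within those with less it was 3.41 (adjusted p = 0.00333).

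Levels in double mutants lay below those in both RNAi mutants, with no overlap. The log2 difference was -0.76 ± 0.32 (SE, 95% confidence interval -1.45 to -0.07), and its p of 0.0328 became 0.949 after edgeR's Benjamini-Hochberg adjustment over all genes. Of the 4 members, 0 were called by edgeR's quasi-likelihood test, 1 had an unadjusted p under 0.05 and DESeq2 called 0, while 0.314% of all genes were called, 0.31% higher and 0.00476% lower. Both RNAi mutants belong to the set with more rRNA, and within that set the log2 difference was -0.56 (adjusted p = 0.660).

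Double mutants of 35 weeks or older had 4.62 and 5.32 CPM and younger ones 4.86 and 7.01 CPM, while older controls had 0.143 and 0.555 CPM and younger ones 0.319 and 0.459 CPM. The rise in older animals differed from that in younger ones by -0.05 on the log2 scale (adjusted p = 0.9999), a test in which 1 of 20626 genes was called. Older and younger libraries overlapped in both groups.

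**Figure D1:**
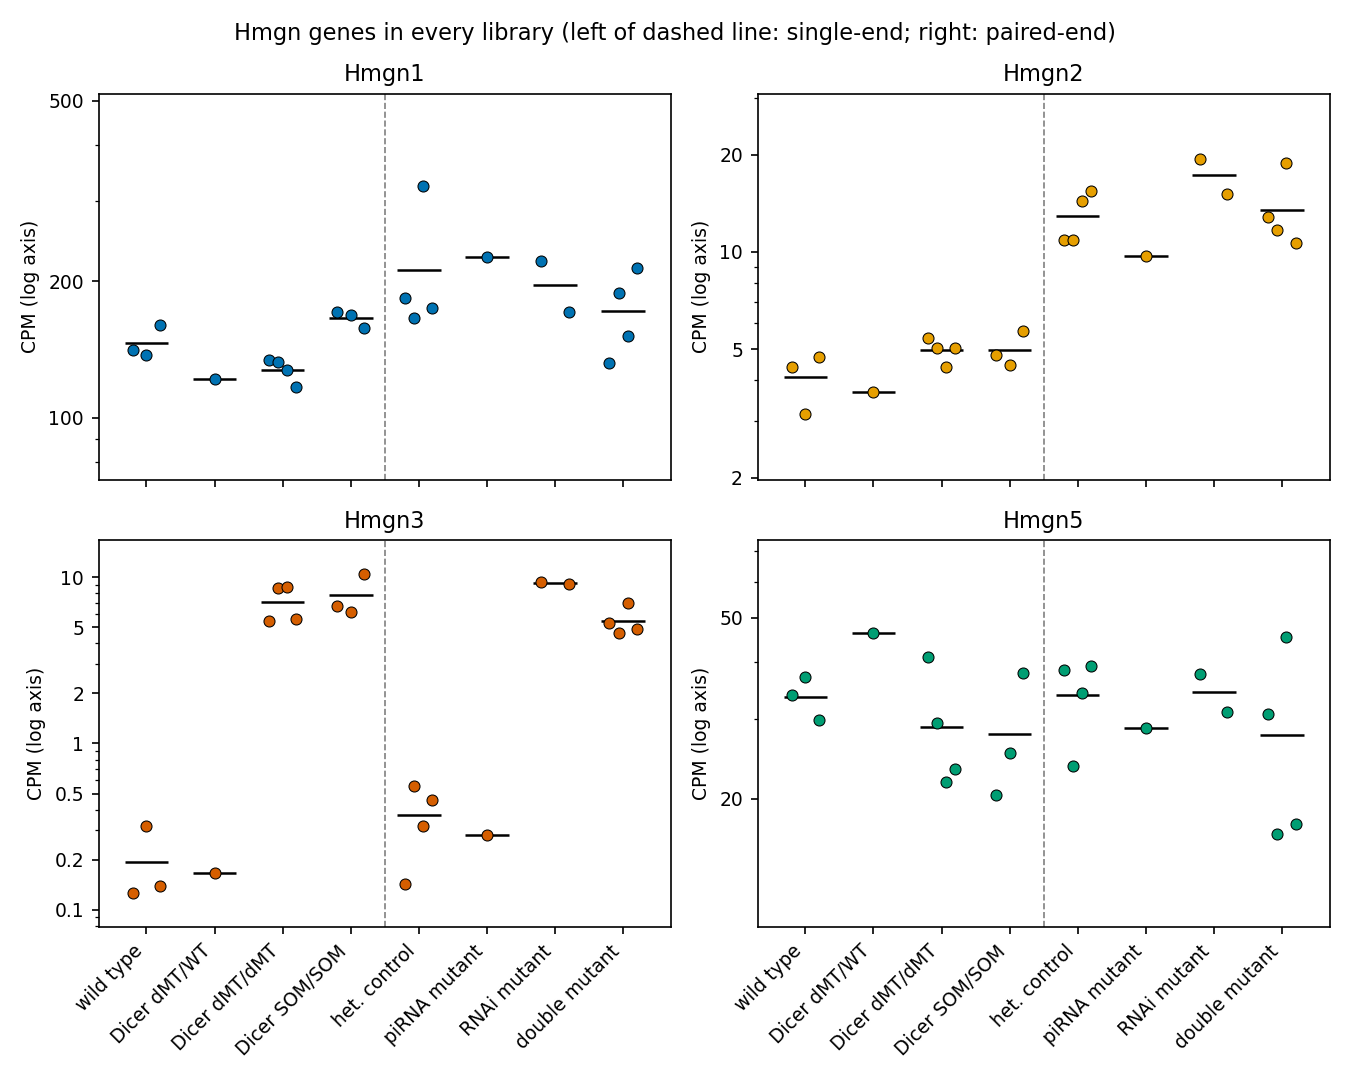
CPM (log axis, scaled separately for each gene) of the 4 Hmgn genes in each of the 22 libraries. Points are libraries, horizontal lines are group means, and the dashed line parts the single-end from the paired-end run. Hmgn3 lies between 4.62 and 10.4 CPM in the 13 libraries without a wild-type Dicer allele and between 0.126 and 0.555 CPM in the other 9, whereas the other genes overlap between most groups.

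Hmgn1, the founding member of the family, was abundant in all genotypes. It lies at chr16:96120618-96127729 (ENSMUSG00000040681.14). Wild-type libraries had 141, 138 and 159.8 CPM and the Dicer dMT/WT library had 121 CPM. Dicer dMT/dMT libraries had 134, 133, 127 and 117 CPM, all below wild type, with a log2 fold change of -0.19 ± 0.08 (SE) that is given without a test.

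Dicer SOM/SOM libraries had 171, 169 and 158 CPM of Hmgn1. The log2 fold change to wild type was 0.18 ± 0.09 (SE, adjusted p = 0.146), and the groups overlapped. Against Dicer dMT/dMT the libraries did not overlap, and the log2 difference was 0.38 ± 0.08 (SE, 95% confidence interval 0.20 to 0.56, adjusted p = 0.0197). Hmgn1 was 1 of 3 members called in that comparison, beside 7.35% of all genes, 4.03% higher and 3.32% lower. Without the shallow Dicer SOM/SOM replicate 3 the log2 difference was 0.41 (adjusted p = 0.0155). The call was lost without Dicer dMT/dMT replicate 3 (adjusted p = 0.0594), without its replicate 4 (adjusted p = 0.0518), without Dicer SOM/SOM replicate 1 (adjusted p = 0.0641), with the replicate number as a block (adjusted p = 0.0805), and when genes of low counts were kept in the test (adjusted p = 0.0640). Gm42418 reached higher levels in Dicer SOM/SOM replicates 1 and 3 than in any Dicer dMT/dMT library, and its part in the Hmgn1 difference was not tested.

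In the paired-end run Hmgn1 had 184, 166, 324 and 175 CPM in controls 1o, 2o, 2 and 3. Control 2 stood far above the other 3 controls. RNAi mutants had 221 and 171 CPM, the piRNA mutant had 227 CPM, and double mutants had 132, 189, 152 and 214 CPM. Controls, RNAi mutants and double mutants overlapped, and the piRNA mutant lay within the control range. The log2 fold change to controls was -0.11 ± 0.26 (SE, adjusted p = 0.858) in RNAi mutants and -0.31 ± 0.22 (SE, adjusted p = 0.358) in double mutants. Without control 2 the value in RNAi mutants turned to 0.17 (adjusted p = 0.648). Double mutants 1o and 1, which have more rRNA, had less Hmgn1 than double mutants 2o and 2, and the part of rRNA content in this was not tested.

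Hmgn2, a further ubiquitous member, lies at chr4:133964738-133968650 (ENSMUSG00000003038.15). Wild-type libraries had 4.39, 3.15 and 4.74 CPM, the Dicer dMT/WT library 3.67 CPM, Dicer dMT/dMT 5.43, 5.03, 4.39 and 5.04 CPM, and Dicer SOM/SOM 4.81, 4.47 and 5.67 CPM. Wild type, Dicer dMT/dMT and Dicer SOM/SOM overlapped in every pairing, while the Dicer dMT/WT library lay within the wild-type range and below every homozygous library. Against wild type, the log2 fold change was 0.28 ± 0.16 (SE, no test) in Dicer dMT/dMT and 0.25 ± 0.18 (SE, 95% confidence interval -0.14 to 0.65, adjusted p = 0.326) in Dicer SOM/SOM, and the homozygous alleles differed by -0.03 ± 0.17 (SE, adjusted p = 0.955).

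Paired-end controls had 10.9, 10.9, 14.3 and 15.4 CPM of Hmgn2 in replicates 1o, 2o, 2 and 3, and the piRNA mutant had 9.69 CPM, just below them. RNAi mutants had 19.3 and 15.1 CPM and double mutants 12.9, 11.7, 18.8 and 10.6 CPM. These ranges overlapped. Against controls, the log2 fold change was 0.42 ± 0.25 (SE, 95% confidence interval -0.11 to 0.95, adjusted p = 0.338) in RNAi mutants and 0.07 ± 0.20 (SE, adjusted p = 0.857) in double mutants. Hmgn2 levels of the single-end and the paired-end run are not compared, since read type, animals and the division of shared reads cannot be told apart. Hmgn2-ps1 held 19.8% to 27.3% of the counts of both rows in the single-end run and 2.67% to 4.06% in the paired-end run, and Hmgn2l6 had at most 0.0392 CPM in any library. Counts of Gm10282, which shares more windows with Hmgn2 than Hmgn2-ps1 does, are not given here.

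Hmgn5, the X-linked member, lies at chrX:109004534-109013404 (ENSMUSG00000031245.8). Wild-type libraries had 33.8, 37.0 and 29.7 CPM, and the Dicer dMT/WT library had 46.2 CPM. Dicer dMT/dMT had 41.0, 29.3, 21.8 and 23.2 CPM and Dicer SOM/SOM 20.4, 25.2 and 37.8 CPM. The spread within each mutant was wider than the distance between the means. The log2 fold change to wild type was -0.22 ± 0.24 (SE, no test) and -0.31 ± 0.26 (SE, 95% confidence interval -0.87 to 0.26, adjusted p = 0.415), and the homozygous alleles differed by -0.09 ± 0.24 (SE, adjusted p = 0.884). The highest Dicer SOM/SOM value came from the shallow replicate 3, and without it the log2 fold change to wild type was -0.55 (adjusted p = 0.132).

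In the paired-end run Hmgn5 had 38.3, 23.6, 34.1 and 39.2 CPM in controls 1o, 2o, 2 and 3, 28.7 CPM in the piRNA mutant and 37.7 and 31.0 CPM in RNAi mutants. Double mutants split into 30.7 and 45.3 CPM in replicates 1o and 1 and 16.7 and 17.6 CPM in replicates 2o and 2. Replicates 1o and 1 are in the set with more rRNA and 2o and 2 in the set with less. Each pair holds an older and a younger animal. In double mutants the rRNA set and the replicate number cannot be told apart, and the part of either in the split was not tested. Controls showed the same order, with 38.3 and 39.2 CPM in 1o and 3, which have more rRNA, and 23.6 and 34.1 CPM in 2o and 2. The log2 fold change to controls was 0.02 ± 0.34 (SE, adjusted p = 0.978) in RNAi mutants and -0.29 ± 0.28 (SE, 95% confidence interval -0.90 to 0.31, adjusted p = 0.520) in double mutants. Within the libraries with more rRNA the double mutant value was 0.00 (adjusted p = 0.999), and within those with less it was -0.74 (adjusted p = 0.129).

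Taking the members other than Hmgn3, edgeR's quasi-likelihood test called 0 of 3 in Dicer SOM/SOM against wild type, where 28.6% of all genes were called, 14.5% higher and 14.2% lower. There 0 had an unadjusted p under 0.05 and DESeq2 called 0. The intervals leave room for changes of up to 0.65 for Hmgn2 upwards and 0.87 for Hmgn5 downwards on the log2 scale. Changes inside these intervals are not excluded by these libraries.

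**Figure D2:**
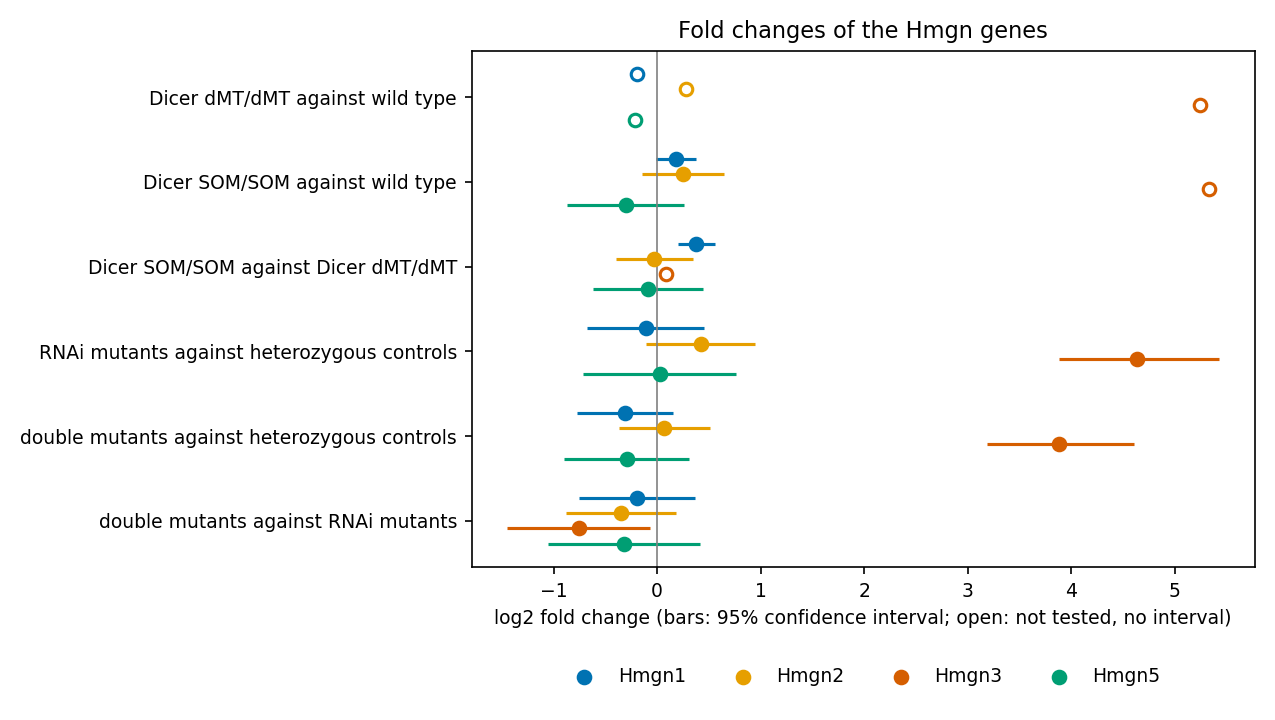
Fitted log2 fold changes of the 4 Hmgn genes in the 6 comparisons. Filled points carry a 95% confidence interval and open points were not tested. Hmgn3 lies at 5.25 and 5.34 in the single-end and at 4.64 and 3.88 in the paired-end comparisons with controls, while the values of the other genes lie between -0.35 and 0.42 in all 6.

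Scaled to exonic length (RPKM, CPM per kilobase), the family kept its order in most libraries. In all 22, Hmgn1 was highest and Hmgn5 came next. In wild type the means were 67.2 ± 5.50 RPKM for Hmgn1, 17.3 ± 1.88 for Hmgn5, 2.05 ± 0.42 for Hmgn2 and 0.126 ± 0.070 for Hmgn3 (SD, n = 3). By this measure 95.8% of the genes tested lay below Hmgn1, 83.0% below Hmgn5, 49.6% below Hmgn2 and 11.8% below Hmgn3.

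Among the genes tested, Hmgn3 ranked low in groups with a wild-type Dicer allele and near the middle in groups without one. Only genes that passed the count filter are ranked. With 8.5 to 18.5 counts in wild type, Hmgn3 depended on the mutants to pass in the single-end run. Its low wild-type rank and its change there thus partly follow from the filter and the choice of the gene. In Dicer dMT/dMT Hmgn3 had 4.58 ± 1.16 RPKM (SD, n = 4), with 62.0% of genes below it, and in Dicer SOM/SOM 5.02 ± 1.47 RPKM (SD, n = 3), with 63.2% below. In paired-end controls 18.6% of genes lay below it, in the piRNA mutant 17.2%, in RNAi mutants 66.1% and in double mutants 57.1%.

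In 7 of 7 single-end libraries homozygous for a Dicer mutation Hmgn3 exceeded Hmgn2 per length, and in 0 of the other 4. In the paired-end run Hmgn3 stayed below Hmgn2 in 11 of 11 libraries. Among the 7, the lowest ratio of Hmgn3 to Hmgn2 was 1.30, in Dicer dMT/dMT replicate 1. Hmgn2-ps1 held 23.5% to 26.0% of the counts of both Hmgn2 rows in that genotype. The excess over Hmgn2 thus depends on how shared reads were divided, and the runs are not compared. The Hmgn3 share of the summed RPKM of the 4 genes was 0.0966% to 0.245% in wild type, 3.96% to 7.25% in Dicer dMT/dMT and 4.13% to 6.60% in Dicer SOM/SOM. It was 0.0844% to 0.380% in paired-end controls, 4.43% to 5.42% in RNAi mutants and 2.71% to 4.23% in double mutants. Hmgn1 alone held 65.1% to 85.6% in all libraries, so Hmgn3 remained a minor part of the Hmgn mRNA in the mutants.

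**Figure D3:**
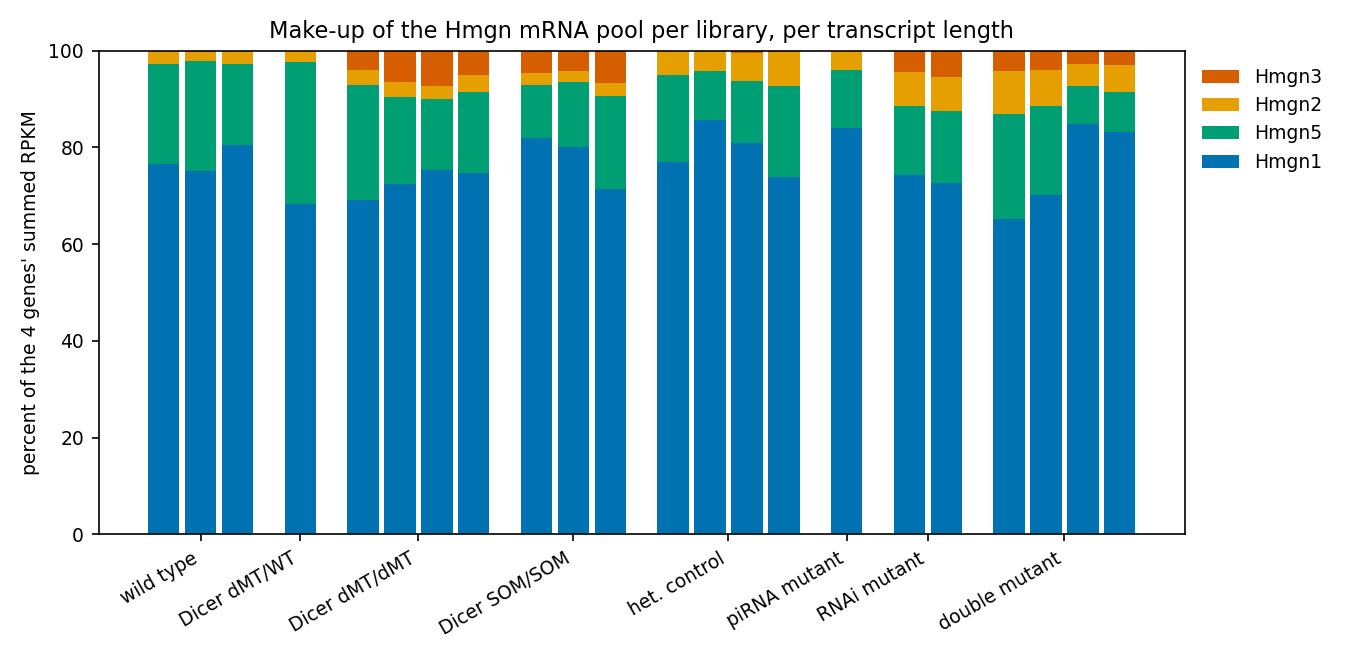
Percent of the summed RPKM of the 4 Hmgn genes that each gene holds, with 1 bar per library, grouped by genotype. Hmgn3 (top of each bar) takes 2.71% to 7.25% in libraries without a wild-type Dicer allele and at most 0.380% in the others.

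The neighbourhood of Hmgn3 was examined because the libraries do not record strand and a read falling on overlapping genes was divided between them. In the annotation, 2 genes overlap Hmgn3, both on the plus strand. Gm29054 (chr9:83145946-83147281), a noncoding processed transcript, covers all 255 bases of the first exon of Hmgn3, which are 21.5% of its own exons. Gm2065 (chr9:83114108-83116864), a transcript awaiting experimental evidence, shares 30 exonic bases with Hmgn3 and otherwise lies in its introns.

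Both overlapping genes had the pattern of Hmgn3. Gm29054 had 0.0245 to 0.138 CPM in wild type, 1.25 to 1.98 in Dicer dMT/dMT and 1.52 to 3.34 in Dicer SOM/SOM, and its counts were 17.98% to 32.2% of those of Hmgn3 in these mutants. Gm2065 had 0.00743 to 0.0689 CPM in wild type, 0.496 to 0.889 in Dicer dMT/dMT and 0.641 to 1.52 in Dicer SOM/SOM. In RNAi mutants the log2 fold change was 4.66 ± 0.42 for Gm29054 (SE, adjusted p = 6.37e-06) and 4.72 ± 0.50 for Gm2065 (SE, adjusted p = 2.55e-05). In double mutants it was 4.23 ± 0.39 (SE, adjusted p = 3.86e-06) and 4.33 ± 0.46 (SE, adjusted p = 1.41e-05). In controls Gm29054 had 2.33 to 3.17 and Gm2065 1 to 3.17 counts, at or under the floor of 3 counts in 3 of 4 libraries for each, so the size of these fold changes is imprecise. Which strand these reads came from cannot be told apart with unstranded libraries, nor can reads of unspliced Hmgn3 be told from reads of Gm2065.

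Of 16 other genes within 500 kb of Hmgn3, 5 were tested in the single-end and 6 in the paired-end run. Phip, which lies 134432 bases away at lower coordinates and encodes a bromodomain protein, is the nearest tested gene on that side. It had 192 ± 10.5 CPM in wild type (SD, n = 3) and 129 ± 20.6 in Dicer SOM/SOM (SD, n = 3), with a log2 fold change of -0.57 ± 0.11 (SE, adjusted p = 0.00341). In RNAi mutants its value was -0.39 (adjusted p = 0.224) and in double mutants -0.35 (adjusted p = 0.115).

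At higher coordinates, Lca5, which encodes the ciliary protein lebercilin, lies 244679 bases away and is the nearest gene tested in the single-end run. It had 10.3 ± 1.01 CPM in wild type and 3.63 ± 0.77 in Dicer SOM/SOM (SD, n = 3 each), which differed on the log2 scale by -1.57 ± 0.18 (SE, adjusted p = 9.4e-05), and it fell by 0.98 on the log2 scale in double mutants (adjusted p = 0.0338). In RNAi mutants its value was -1.25 (adjusted p = 0.0586). The nearest on this side in the paired-end run was the lincRNA Gm46123 at 199474 bases, with at most 0.0738 CPM in controls and 0.0378 to 0.917 CPM in double mutants (adjusted p = 0.0751). Its log2 fold change was 3.04 ± 1.18 (SE) in double mutants and 2.11 ± 1.40 (SE, adjusted p = 0.383) in RNAi mutants, and the lowest double mutant lay within the control range. Sh3bgrl2, 401642 bases away on the same side, had -0.52 in Dicer SOM/SOM (adjusted p = 0.00664) and -0.59 in double mutants (adjusted p = 0.0339). Its value in RNAi mutants was -0.60 (adjusted p = 0.123). Lca5, Phip and Sh3bgrl2 fell where they were called. Of all genes, 14.2% were called lower in Dicer SOM/SOM and 8.83% in double mutants.

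**Figure D4:**
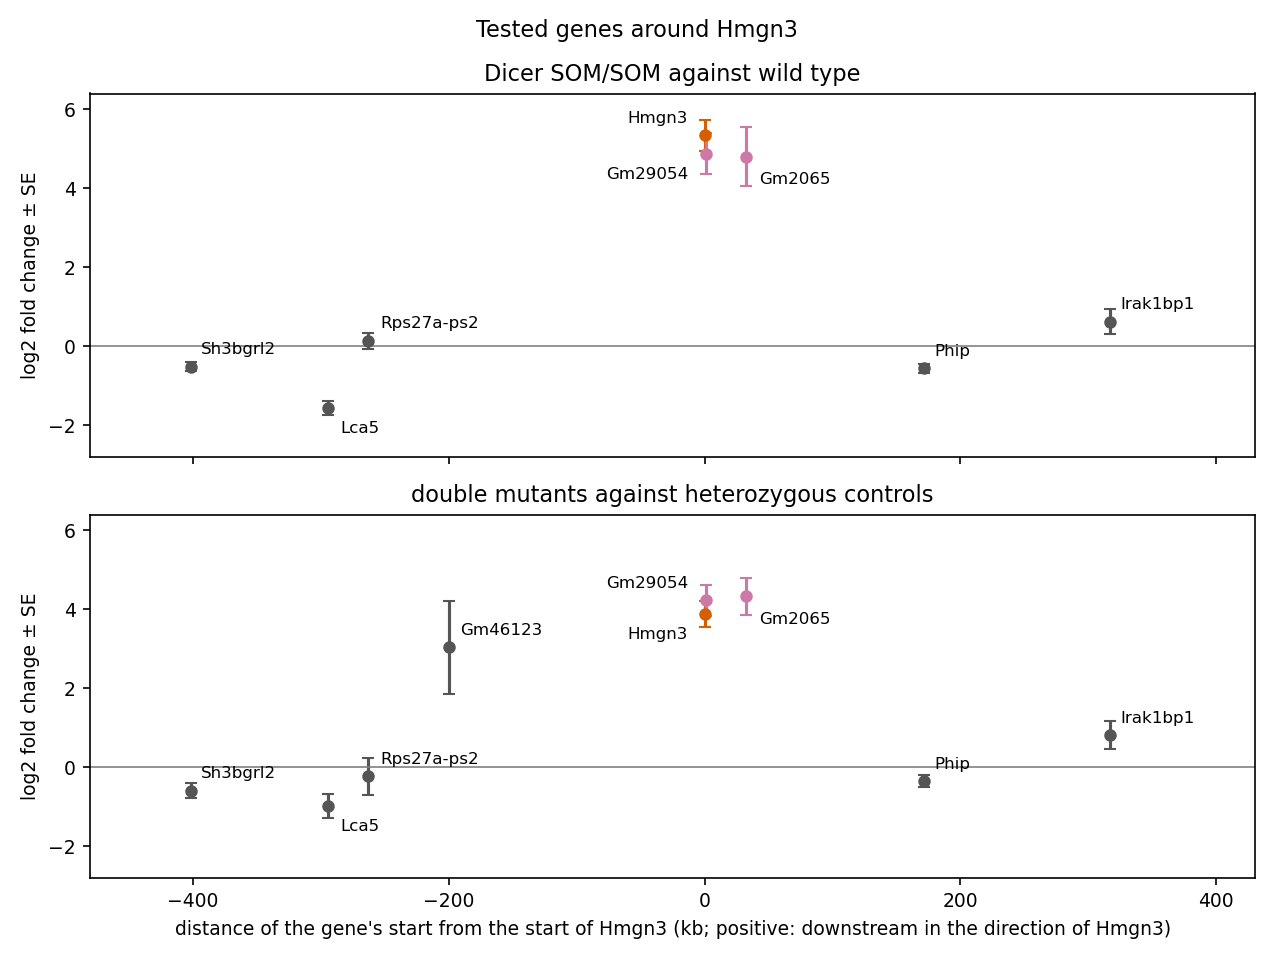
Log2 fold change (± SE) of the tested genes around Hmgn3 against the distance of their start from that of Hmgn3 in kilobases, for Dicer SOM/SOM against wild type (top) and double mutants against heterozygous controls (bottom). Hmgn3 is drawn in orange, the genes that overlap it in pink and other genes in grey. Hmgn3, Gm29054 and Gm2065 lie between 3.88 and 5.34, and Gm46123 was tested only in the lower panel. Phip, Lca5 and Sh3bgrl2 lie below 0 in both panels. Irak1bp1 lies at 0.62 (top) and 0.81 (bottom) and Rps27a-ps2 at 0.14 and -0.23, and neither Irak1bp1 nor Rps27a-ps2 was called.

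The genes whose pattern was most like that of Hmgn3 were ranked among 20088 genes tested in both runs, by the smaller of their Pearson correlations with Hmgn3 (log2 CPM) over the 11 libraries of each run. The first 2 were Gm29054 (r = 0.994 single-end, 0.987 paired-end) and Gm2065 (0.991 and 0.977), which share its locus. They were followed by Fam161b (0.967 and 0.965), Kif5b (0.969 and 0.963), a kinesin heavy chain, and Pmaip1 (0.960 and 0.961), the pro-apoptotic BH3-only protein NOXA. These points share genotype and sequencing run, so the correlations describe mostly the split between libraries with and without a wild-type Dicer allele. With Spearman's rank correlation only 1 of these 5 genes, Gm29054, stayed among the first 5.

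The size of the change differed among these genes. Pmaip1 went from 0.261 CPM in wild type to 3.495 in Dicer dMT/dMT and 3.31 in Dicer SOM/SOM, and from 0.456 in controls to 6.64 in RNAi mutants and 4.35 in double mutants. Fam161b went from 8.04 to 27.0 and 31.7 CPM and from 10.3 to 37.9 and 36.5 CPM in the same groups. Kif5b went from 60.2 to 117 and 113 CPM and from 93.4 to 167 and 146 CPM.

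Other proteins of nucleosome architecture were read beside the Hmgn genes from lists of 41 genes, made of HMGA and HMGB proteins, linker histones, replacement core histones and histone chaperones. In RNAi mutants, 7 of 37 tested genes were called and all were higher, beside 10.7% of all genes called and 7.07% called higher. The median log2 fold change was 0.13 against -0.02 over all genes. In double mutants 8 of 37 were higher and 1 lower, beside 12.3% and 8.83% of all genes, with a median of 0.07 against -0.00. In Dicer SOM/SOM against wild type, 7 of 38 were higher and 2 lower, beside 14.5% and 14.2% of all genes, with a median of 0.12 against 0.02. In double mutants and in Dicer SOM/SOM the shares called in either direction were near those of all genes. By direction, the list shares lay above those of all genes for higher calls and below them for lower calls. The lists hold few genes and this lean was not tested, so it is no result about them.

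Linker histones, with which HMGN proteins compete for nucleosomes, gave 3 of 8 tested genes called, all higher, in RNAi mutants and in double mutants. Of all genes, 10.7% and 21.2% were called there, 7.07% and 12.3% higher. Hist1h1e went from 2.19 ± 0.42 CPM in controls (SD, n = 4) to 22.8 ± 2.61 in RNAi mutants (SD, n = 2, adjusted p = 4.13e-07) and 21.8 ± 4.46 in double mutants (SD, n = 4, adjusted p = 1.28e-07). Hist1h1c and Hist1h1a rose in double mutants by 1.19 ± 0.27 (SE, adjusted p = 0.00652) and 1.13 ± 0.21 (SE, adjusted p = 0.00153) on the log2 scale. H1foo, the oocyte linker histone, had 985 ± 195 CPM in controls and 1050 ± 249 in double mutants (SD, n = 4 each), which differed on the log2 scale by 0.09 ± 0.18 (SE, adjusted p = 0.775).

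Among HMGA and HMGB proteins, 2 of 6 tested genes were called in RNAi mutants and in double mutants, both higher, beside the same 10.7% and 21.2% of all genes. Hmga2, an AT-hook protein of early development, had 66.9 ± 1.74 CPM in controls (SD, n = 4), 113.5 ± 2.45 in RNAi mutants (SD, n = 2, adjusted p = 0.00660) and 147 ± 27.96 in double mutants (SD, n = 4, adjusted p = 4.54e-05). Hmgb3 rose in double mutants by 0.63 ± 0.18 on the log2 scale (SE, adjusted p = 0.0216). Hmgb1 had a log2 fold change of -0.18 ± 0.15 there (SE, adjusted p = 0.452) and Hmga1 of 0.27 ± 0.21 (SE, adjusted p = 0.425).

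Of the 16 histone chaperones, 1 was called higher in RNAi mutants and 1 higher and 1 lower in double mutants, shares below the 10.7% and 21.2% of all genes called. The higher one in both was Set, a chaperone and phosphatase inhibitor, which went from 20.6 ± 2.71 CPM in controls to 53.5 ± 3.67 in double mutants (SD, n = 4 each, adjusted p = 9.59e-06). Of the 7 replacement core histones, 1 was called in RNAi mutants and 2 in double mutants, all higher, beside the same shares of all genes. Among them H2afx, the variant phosphorylated at DNA breaks, had a log2 fold change of 0.73 ± 0.21 in RNAi mutants (SE, adjusted p = 0.0429) and 0.70 ± 0.18 in double mutants (SE, adjusted p = 0.0126). Histone genes belong to families of near-identical copies, so their counts are uncertain where reads could be split. The called genes Hist1h1e, Set, Hist1h1c, Hmga2, Hist1h1a, H2afx and Hmgb3 were all expressed above 1 CPM in controls, unlike Hmgn3.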

How the data were processed

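The authors mapped the reads of 22 GV oocyte libraries with STAR 2.5.3a to mm10 (GRCm38), and assigned them to GENCODE M15 genes with featureCounts, ignoring strand, retaining multi-mapping reads and giving each location a fraction of a shared read. The deposited values are therefore expected counts (estimated counts), raw and not normalized. The members, gene lists and rule for named genes were chosen with earlier results of these data known.

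Expected counts were rounded to whole numbers and each run was fitted on its own with edgeR 4.0.16 (R 4.3.3), using TMM factors, filterByExpr (minimum count 10, minimum total 15, groups of at least 2 libraries), the quasi-likelihood F test and Benjamini-Hochberg adjustment over all genes tested at 0.05. The prior count was 0.125 for fitted fold changes, and 2 for the log2 CPM behind correlations. The Dicer dMT/WT library was left out of the fit and given by its values, whereas the piRNA mutant was kept in the fit of its run. CPM and RPKM were calculated from unrounded counts, TMM-scaled totals and the exonic lengths in the table. Levels were not compared between runs. Intervals are 95% intervals of the fitted coefficient, and the floor of 3 counts covers counting error only.

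No test is given for members in Dicer dMT/dMT against wild type, nor for Hmgn3 and the genes that overlap it in any single-end comparison. Named genes were the members, the 5 genes most like Hmgn3, list genes called in RNAi and in double mutants (at most 8, by size in double mutants) with H1foo, Hmgb1, Hmga1 and Hmga2, the genes that overlap Hmgn3 and the nearest tested gene on each side. Sh3bgrl2, Irak1bp1 and Rps27a-ps2, drawn in the plot of the locus, were named after their values were seen.

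Alternatives were DESeq2 1.42.0, DESeq2 size factors in edgeR, no filter, fits of only the compared groups, the replicate number as a block, a prior count of 1, age as a term, animals under 35 weeks, Spearman in place of Pearson, and each library left out in turn. The rRNA set as a term, fits within each rRNA set, and the interaction of age and genotype were added after seeing the data. The edgeR fit and test were tried on simulated data, and the DESeq2 alternative was not. Shared windows, coding sequences and positions were taken from GENCODE M21 on GRCm38, in which 49035 of 52636 gene identifiers matched with their version. Small RNAs, isoforms and proteins are not analysed here.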

Additional observations from a re-analysis of the deposited data

Results flagged for a closer look

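Of 12 groups of 4 libraries checked (4 genes in Dicer dMT/dMT, double mutants and heterozygous controls), 1 held a library far from the others by Dixon's criterion, which chance gives in about 1 of 20 groups. Heterozygous control 2, of 10 weeks, had 324 CPM of Hmgn1, and the gap to the next control, at 184 CPM, was 0.889 of the range of the group. The cause was not tested.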

How the results depend on the processing

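Hmgn3 stayed called in RNAi mutants and in double mutants against controls under every alternative run. Its log2 fold change without each library in turn lay between 4.34 and 4.92 in RNAi mutants and between 3.58 and 4.16 in double mutants, and under the other alternatives between 4.52 and 5.02 and between 3.41 and 4.46. In the untested comparisons with wild type it lay between 4.998 and 5.81 in Dicer dMT/dMT and between 5.08 and 5.89 in Dicer SOM/SOM without each library in turn, and the highest values came without wild-type replicate 2.

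The call of Hmgn1 in Dicer SOM/SOM against Dicer dMT/dMT was lost with no filter (log2 difference 0.35), with the replicate number as a block (0.34) and without 3 single libraries (range 0.34 to 0.41 over all left out). Same-numbered libraries of different groups had correlations of their deviations from -0.03 to 0.05 (single-end) and from -0.07 to 0.18 (paired-end). Differently numbered libraries were not correlated, so these values cannot decide whether replicate numbers pair the libraries. The block moved the number of genes called in RNAi mutants from 2247 to 1228 and changed no other call of a member, with log2 fold changes of Hmgn3 of 4.62 in RNAi mutants and 3.95 in double mutants.

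Values near 0 changed sign without being called. Hmgn5 in RNAi mutants turned to -0.27 with the block, -0.14 with age as a term, -0.10 in younger animals, -0.36 with the rRNA set as a term and -0.17 within libraries with more rRNA. Hmgn1 in RNAi mutants turned to 0.14 with the rRNA set as a term and to 0.14 within libraries with more rRNA. Hmgn2 in double mutants turned to -0.00249 in younger animals and -0.16 within libraries with less rRNA. Hmgn5 within libraries with more rRNA turned to 0.000623 in double mutants against controls and to 0.17 against RNAi mutants. The cause was not tested. Without each library in turn, ranges that cross 0 were -0.32 to 0.17 for Hmgn1 and -0.13 to 0.17 for Hmgn5 in RNAi mutants, -0.13 to 0.17 for Hmgn2 in double mutants, -0.37 to 0.016 for Hmgn1 between double and RNAi mutants, and -0.10 to 0.041 for Hmgn2, -0.13 to 0.22 for Hmgn3 (not tested) and -0.34 to 0.13 for Hmgn5 between the homozygous Dicer alleles.

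With 1 RNAi mutant left out, the remaining library was assumed to vary like the other groups. No RNAi mutant had less rRNA, so that set gave no comparison with RNAi mutants.

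The number of all genes called moved by more than 1.5 times in these cases. Dicer dMT/dMT against wild type went from 3556 genes to 2203 without wild-type replicate 1 and 2205 without replicate 2. Between the homozygous Dicer alleles it went from 1702 to 2776 with DESeq2, and to 1073, 899 and 1123 without Dicer dMT/dMT replicates 1, 2 and 3. In RNAi mutants it went from 2247 to 1353 in younger animals, and to 1104 and 1077 without RNAi mutant 1 and 2. In double mutants it went from 4446 to 1932 in younger animals and 1488 within libraries with less rRNA, both with fewer samples. Between double and RNAi mutants it went from 66 to 170 with DESeq2, 147 with no filter and 24 without RNAi mutant 2.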
